A study of Mus musculus with 20 samples.

Results

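Pericentral zonation genes are expressed mainly in the hepatocytes that lie near the central vein of the liver lobule. The 10 genes described here were taken by name from a written list: Glul, Axin2, Lgr5, Cyp2e1, Cyp1a2, Oat, Slc1a2, Rhbg, Rgn and Lect2. They are 10 of the 46603 gene identifiers in the deposited count files, and all 10 were among the 14661 genes that passed the filter on low counts and were tested. The rule names them by symbol and uses no measured value, but the members were chosen with earlier results of these data known.

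In the liver lobule, blood flows from the portal field to the central vein, and hepatocytes along that path divide their tasks. Endothelial cells of the central vein secrete Wnt ligands and R-spondins, and the resulting beta-catenin activity keeps a pericentral programme on. That programme holds glutamine synthesis from ammonia and much of drug and alcohol oxidation, whereas periportal hepatocytes hold urea synthesis and gluconeogenesis.

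RNA was sequenced from liver of male mice aged 2 months. The 20 libraries formed 4 groups of 5, with 1 baseline and 1 later sample taken per mouse. Wild-type (WT) mice were C57BL/6J animals bought from a vendor. EedHepKO mice (written KO below) combined a transgene for Cre driven by the albumin promoter with Eed alleles carrying loxP sites at exons 3 and 6, so that hepatocytes lack functional EED, a core subunit of polycomb repressive complex 2 (PRC2). The albumin promoter acts in hepatocytes, and bulk RNA also holds the other cells of the liver, whose Eed was not measured apart. Baseline tissue was lobes 1, 2 and 3, removed at a partial hepatectomy (PHx) of all mice. The later tissue was lobes 4, 5 and 6, taken 30 h after surgery from 1 mouse of each genotype, and after 40 h and 48 h from 2 mice each. Genotype and colony cannot be told apart, nor can the response to PHx and the lobe.

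Total counts ranged from 21634890 to 30461351 per library. Levels are given as CPM, counts scaled to the library total with TMM factors, and differences as log2 fold changes with their standard error (SE). A gene is called where its adjusted p from edgeR's quasi-likelihood test, with Benjamini-Hochberg adjustment across the 14661 genes, was under 0.05. The TMM factors ran from 0.670 in a WT baseline library to 1.51 in a KO library after PHx. Without them, by library size alone, the median log2 over all genes moved from -0.03 to 0.45 at baseline and from -0.01 to 0.37 after PHx, so directions below are relative to the TMM scale. Eed had 14.6 to 23.2 CPM in the 10 WT libraries and 2.75 to 7.52 CPM in the 10 KO libraries, with no overlap. The hepatocyte markers were high in every group, their summed level being 136289 to 158660 CPM in WT at baseline, 90628 to 150299 CPM in WT after PHx, 93979 to 125362 CPM in KO at baseline and 54920 to 118955 CPM in KO after PHx. Libraries after PHx stood far apart in cell cycle genes: the summed level of 10 such genes was 30.6 to 1143 CPM in WT and 43.8 to 940 CPM in KO, against 24.9 to 27.1 CPM in WT at baseline and 50.1 to 157 CPM in KO at baseline. In bulk liver, fewer pericentral cells and less RNA per cell cannot be told apart.

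The promoters of 7 members were found in the RefSeq table for GRCm38.p6. Lgr5, Rhbg and Rgn were not in it. Because several members are known targets of beta-catenin, the 250 bases before each start site were searched on both strands for the motifs CTTTGAA and CTTTGAT of the TCF/LEF factors that beta-catenin binds (read as TTCAAAG and ATCAAAG on the other strand). Neither motif overlaps the other. A match was present for 4 of the 7 members with a window and in 7.48% of the 32851 promoter windows searched the same way. The 4 windows with a match are printed because they show where those letters lie, and Glul is printed beside them as the member with the sharpest known pericentral restriction. Each run is 150 bases, 5′ to 3′ on the gene's own strand, with the motif in capitals.
Glul, chr1:153899779-153899928, plus strand: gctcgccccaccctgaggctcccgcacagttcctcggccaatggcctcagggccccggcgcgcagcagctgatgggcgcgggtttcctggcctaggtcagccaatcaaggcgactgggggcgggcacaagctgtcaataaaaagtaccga
Cyp2e1, chr7:140763569-140763718, plus strand: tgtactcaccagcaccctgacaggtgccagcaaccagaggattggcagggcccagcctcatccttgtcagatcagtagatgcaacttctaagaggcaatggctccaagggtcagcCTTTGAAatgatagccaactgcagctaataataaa
Cyp1a2, chr9:57683756-57683905, minus strand: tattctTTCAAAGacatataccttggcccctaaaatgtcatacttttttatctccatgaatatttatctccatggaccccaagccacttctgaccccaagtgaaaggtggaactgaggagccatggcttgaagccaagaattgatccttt
Slc1a2, chr2:102706188-102706337, plus strand: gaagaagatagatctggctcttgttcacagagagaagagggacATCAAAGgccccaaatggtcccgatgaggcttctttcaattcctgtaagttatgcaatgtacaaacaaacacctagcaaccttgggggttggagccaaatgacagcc
Lect2, chr13:56548539-56548688, minus strand: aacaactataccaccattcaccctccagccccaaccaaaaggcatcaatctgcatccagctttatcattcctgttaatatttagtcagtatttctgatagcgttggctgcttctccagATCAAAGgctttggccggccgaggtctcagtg
The first base of the motif was 135 bases before the start site in Cyp2e1, 244 in Cyp1a2, 207 in Slc1a2 and 32 in Lect2. These are the start sites of the RefSeq windows. Against the gene starts of GENCODE M21, that of Slc1a2 lies 47779 bases downstream, inside the gene (chr2:102658659-102790784). Those of Cyp2e1 and Cyp1a2 lie 80 and 48 bases downstream, and that of Lect2 lies upstream, at -36. A match is a description of the letters and was not tested as a binding site.

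Levels of different genes were compared per kilobase of exon (CPM per kb). In WT at baseline, Cyp2e1, which oxidises ethanol and paracetamol, was highest at 3297 ± 475 CPM per kb (SD, n = 5). Rgn, a calcium-binding lactonase also called regucalcin, followed at 900 ± 46.3, then Cyp1a2, the cytochrome P450 that clears caffeine, at 417 ± 86.7, Oat (ornithine aminotransferase) at 305 ± 66.3, Glul (glutamine synthetase) at 251 ± 62.1 and Lect2, a protein secreted by hepatocytes, at 108 ± 15.7. The other 4 were far lower: Slc1a2, a glutamate transporter, had 9.77 ± 2.04 CPM per kb, Axin2 1.09 ± 0.730, Lgr5 0.370 ± 0.176 and Rhbg 0.368 ± 0.156. Neighbours whose ranges overlapped in this order were Cyp1a2 and Oat, Oat and Glul, Axin2 and Lgr5, and Lgr5 and Rhbg.

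Members varied more between mice after PHx than at baseline by their median coefficient of variation, although Axin2 (67%), Lgr5 (47.5%) and Rhbg (42.5%) already varied widely in WT at baseline. That median over the 10 genes was 21.3% in WT at baseline and 22.02% in KO at baseline. After PHx it was 80.0% in WT and 91.7% in KO. Over all genes with a mean of at least 1 CPM the medians were 15.3%, 18.9%, 30.8% and 40.1%, in the same order of groups.

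**Figure D1:**
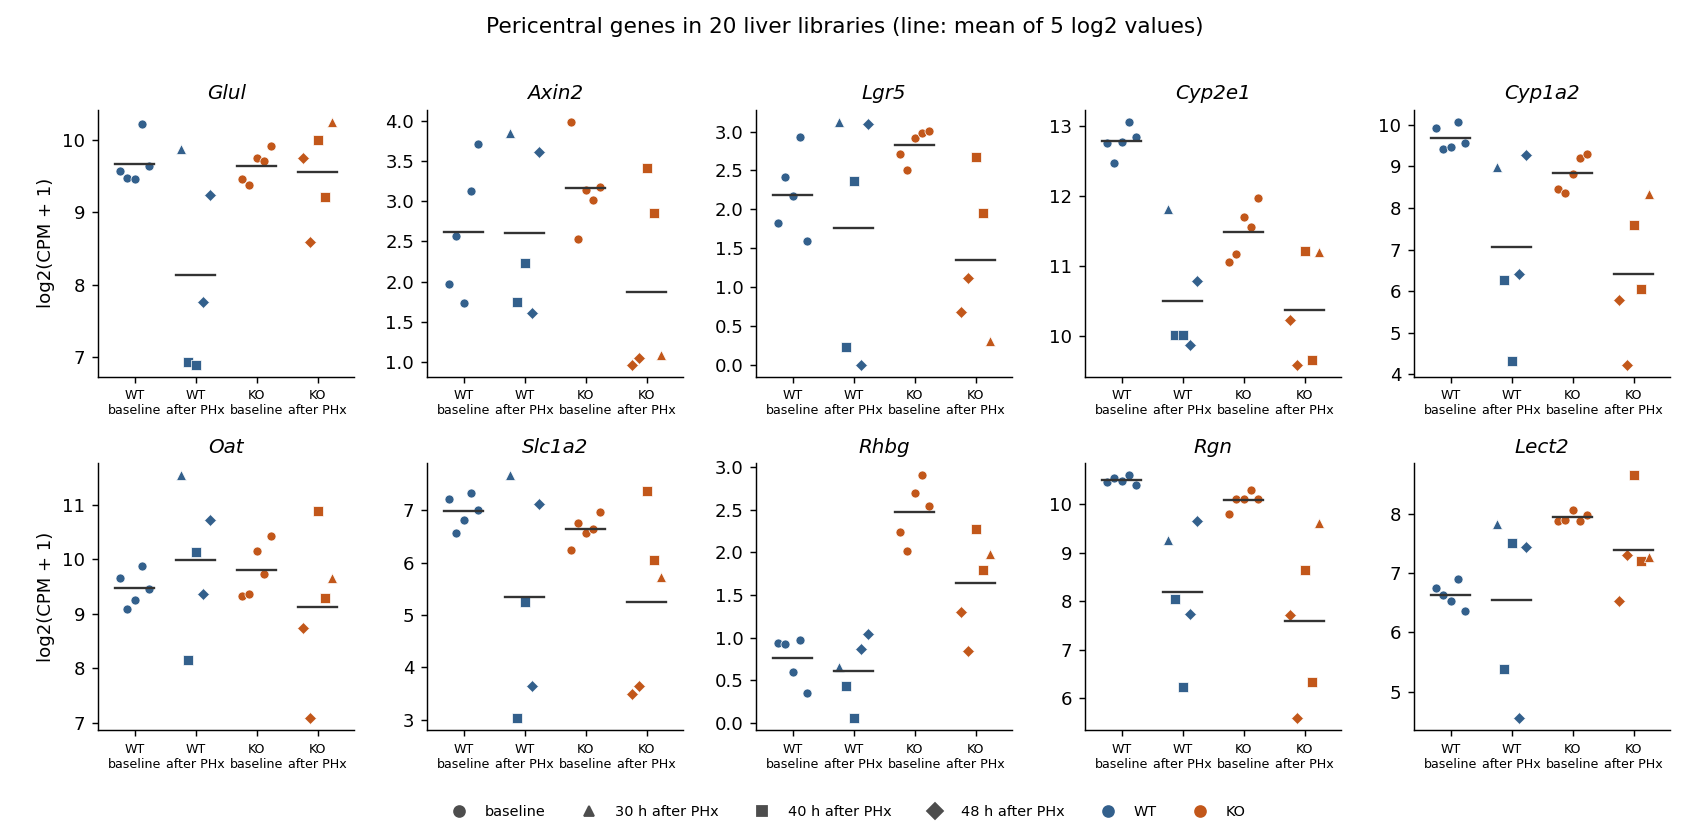
Each panel shows 1 gene as log2(CPM + 1) in the 20 libraries, in blue for WT and orange for KO, with the marker shape giving the hours after PHx and the line the mean of 5 log2 values. In the WT group after PHx, Glul spans 118 to 941 CPM, against 704 to 1195 CPM at baseline.

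Glutamine metabolism was described first. Glul encodes the enzyme that joins ammonia to glutamate, and lies on mm10 chr1:153899944-153909723. Its levels in WT at baseline were 757, 709, 704, 1195 and 800 CPM in replicates 1 to 5. KO livers at baseline had 705, 663, 864, 835 and 963 CPM in replicates 7, 8, 10, 11 and 12. These ranges overlapped, and the log2 fold change of KO against WT was -0.05 ± 0.45 (SE; edgeR adjusted p 0.958), or 0.42 by library size alone.

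After PHx the WT livers split. Glul was at 941 CPM in the 30 h library, at 121 and 118 CPM in the 40 h libraries, and at 216 and 604 CPM in the 48 h libraries. In KO livers after PHx it was at 1215 CPM at 30 h, 1026 and 593 CPM at 40 h, and 857 and 383 CPM at 48 h. All 4 WT mice with both samples numbered had less Glul after PHx, whereas 3 of 5 KO mice had more and 2 less, with changes of -0.79 to 0.34 in log2(CPM + 1).

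The response of Glul to PHx was not called in WT (log2 -1.06 ± 0.46, edgeR adjusted p 0.109) or in KO (0.02 ± 0.45, adjusted p 0.981). With the mouse as a block, which takes the WT response from 4 mice since WT baseline replicate 1 has no mouse number, it was called in WT at -2.04 (edgeR adjusted p 0.00747). Leaving out WT after PHx replicate 1, the 30 h library, also gave a call, at -1.65 (edgeR adjusted p 0.0109). The difference between the responses of the genotypes was 1.07 ± 0.64 and was not called (edgeR adjusted p 0.484).

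KO against WT after PHx, Glul differed by 1.03 ± 0.46 and was not called (edgeR adjusted p 0.111). At 40 h, where both KO livers exceeded both WT livers, it was higher in KO by 2.76 ± 0.47 (edgeR adjusted p 0.00259, 2 against 2 libraries). No such difference was called at 48 h (0.60 ± 0.44, adjusted p 0.339). With the 3 times weighted equally, Glul was called higher in KO after PHx at 1.24 (edgeR adjusted p 0.00533), and without WT after PHx replicate 1 at 1.62 (adjusted p 0.0109). Library size alone also called Glul higher there.

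Slc1a2 encodes the transporter that brings glutamate into the pericentral cell. At baseline it had 148, 93.3, 112, 160 and 127 CPM in WT replicates 1 to 5 and 75.3, 107, 94.1, 99.7 and 124 CPM in KO replicates 7, 8, 10, 11 and 12. The ranges overlapped (log2 -0.36 ± 0.73, edgeR adjusted p 0.782). After PHx the WT libraries had 202 CPM at 30 h, 7.18 and 36.9 CPM at 40 h, and 11.5 and 138 CPM at 48 h. The KO libraries had 51.9 CPM at 30 h, 164 and 65.5 CPM at 40 h, and 10.2 and 11.4 CPM at 48 h. Each genotype thus held livers near its baseline level and livers far below it.

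At 48 h Slc1a2 was lower in KO by a log2 of 2.79 (fold change -2.79 ± 0.82, edgeR adjusted p 0.0225). That call rests on WT after PHx replicate 5, the 48 h liver with 138 CPM: without it the fold change was -0.17 (adjusted p 0.885). Leaving out KO after PHx replicate 7 (edgeR adjusted p 0.113) or replicate 8 (adjusted p 0.0859) ended it too. At 40 h the difference was 2.38 ± 0.81 and was not called (edgeR adjusted p 0.0603), while DESeq2 (2.39, adjusted p 0.0133), library size alone (2.76, adjusted p 0.0279), the fit with no filter (2.40, adjusted p 0.00936) and the fit without WT after PHx replicate 3 (4.00, adjusted p 0.0252) called it.

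The ratio of Glul to Slc1a2 CPM, chosen after the values were seen, was 5.10 to 7.59 in WT at baseline and 6.20 to 9.37 in KO at baseline. In KO after PHx it was 84.2 and 33.5 at 48 h, 6.26 and 9.05 at 40 h and 23.4 at 30 h. WT livers after PHx had ratios of 4.65 at 30 h, 16.8 and 3.20 at 40 h, and 18.8 and 4.38 at 48 h, so 3 KO libraries lay above all WT libraries.

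**Figure D2:**
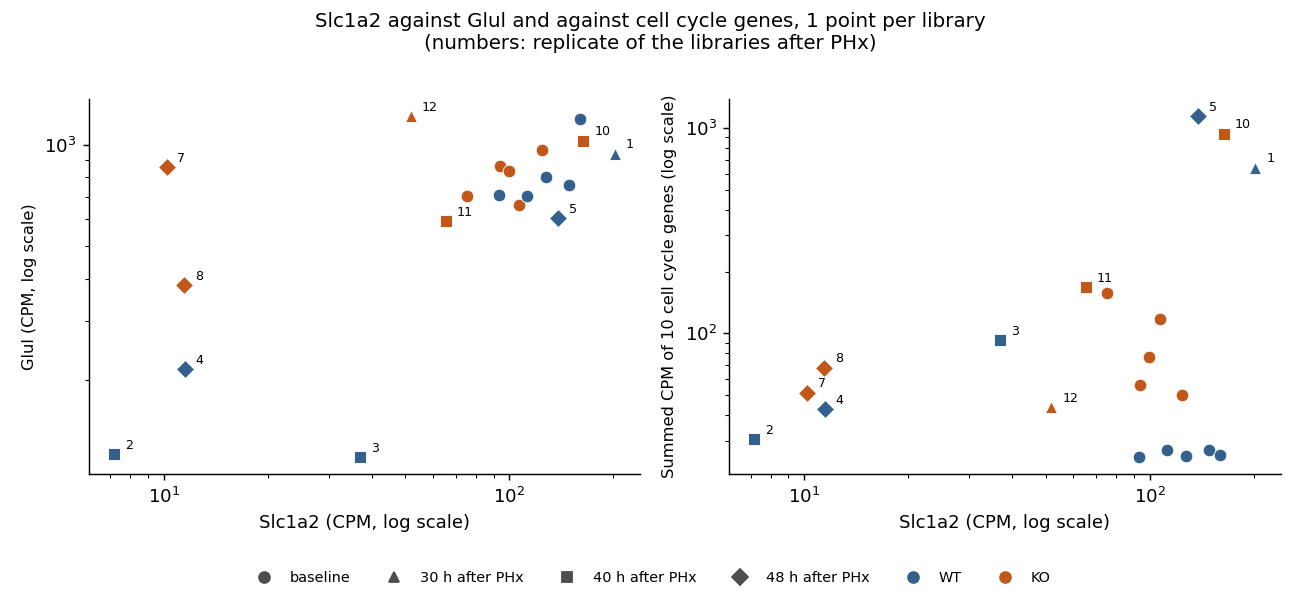
Both panels plot 1 point per library with Slc1a2 in CPM on a log x axis, against Glul in CPM (left, log axis) and against the summed CPM of 10 cell cycle genes (right, log axis); colour gives the genotype, shape the time and numbers the replicate after PHx. KO replicate 7 at 48 h has 857 CPM of Glul with 10.2 CPM of Slc1a2, and the 3 livers after PHx with the most Slc1a2 (WT 1, WT 5 and KO 10) are the 3 with the highest cell cycle sums.

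The summed cell cycle level of the 10 livers after PHx was highest in WT replicate 5 (1143 CPM), KO replicate 10 (940 CPM) and WT replicate 1 (642 CPM). The most Slc1a2 after PHx was in the same 3 livers, at 138, 164 and 202 CPM. So was the most Oat (1683, 1903 and 2982 CPM), Axin2 (11.2, 9.61 and 13.3 CPM) and Lgr5 (7.59, 5.38 and 7.72 CPM). The other members had other livers among their highest 3. WT livers at baseline had 93.3 to 160 CPM of Slc1a2 with cell cycle sums of 24.9 to 27.1 CPM. Any part of cell cycle state in the differences of these genes was not tested.

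Oat, which converts ornithine to a precursor of glutamate, had 543 to 938 CPM in WT at baseline and 640 to 1380 CPM in KO at baseline. After PHx the WT libraries had 2982 CPM at 30 h, 282 and 1124 CPM at 40 h, and 660 and 1683 CPM at 48 h. In KO they had 810 CPM at 30 h, 1903 and 625 CPM at 40 h, and 425 and 135 CPM at 48 h. Both KO livers at 48 h were below both WT livers (log2 -2.07 ± 0.69, edgeR adjusted p 0.0392), and the other contrasts did not call Oat. That call ended without WT after PHx replicate 5 (-1.31, edgeR adjusted p 0.241) or KO after PHx replicate 8 (-1.55, adjusted p 0.203), and by library size alone (-1.73, adjusted p 0.0601).

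Rhbg, a membrane channel for ammonia, was the member with the clearest genotype difference. WT livers at baseline had 0.910, 0.900, 0.515, 0.963 and 0.275 CPM. KO livers at baseline had 3.72, 3.04, 5.48, 6.48 and 4.84 CPM, so the groups did not overlap. The gene was higher in KO by a log2 of 2.72 ± 0.57 (edgeR adjusted p 0.00262), a call kept under every alternative run at baseline. Its exons overlap a read-through gene on the same strand, Gm38392, and the share of Rhbg reads set aside for that overlap is not known.

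After PHx, Rhbg had 0.567 CPM at 30 h, 0.348 and 0.0380 CPM at 40 h, and 0.815 and 1.06 CPM at 48 h in WT. The KO libraries had 2.94 CPM at 30 h, 3.85 and 2.47 CPM at 40 h, and 1.47 and 0.791 CPM at 48 h. Only KO replicate 8 at 48 h fell within the WT range. The gene was called higher in KO after PHx (2.00 ± 0.55, edgeR adjusted p 0.0124) and at 40 h (4.04 ± 0.77, adjusted p 0.00463), but not at 48 h (0.26 ± 0.65, adjusted p 0.806). Fitted on the 10 libraries after PHx alone, the difference was 2.03 and was not called (edgeR adjusted p 0.0902).

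Among the enzymes of drug oxidation, Cyp2e1 (chr7:140763739-140774987) was lower in KO at baseline. It had 6917, 5690, 7029, 8545 and 7394 CPM in WT replicates 1 to 5. KO replicates 7, 8, 10, 11 and 12 had 2128, 2315, 3325, 3008 and 4034 CPM, all below the lowest WT liver. The log2 fold change was -1.26 ± 0.39 (edgeR adjusted p 0.0306). Of the 10 fits that left out 1 replicate 7 made no call, with edgeR adjusted p from 0.0337 to 0.111 over the 10, and neither did library size alone (-0.80, adjusted p 0.0896) or the fit with no filter (-1.20, adjusted p 0.0703).

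Cyp2e1 fell after PHx in WT, to 3618 CPM at 30 h, 1033 and 1038 CPM at 40 h, and 934 and 1772 CPM at 48 h. No WT liver after PHx reached the lowest baseline level (log2 -2.08 ± 0.40, edgeR adjusted p 0.0015). KO livers after PHx had 2349 CPM at 30 h, 2379 and 807 CPM at 40 h, and 1204 and 771 CPM at 48 h. Their response was -0.98 ± 0.38 and was not called (edgeR adjusted p 0.0596), but was called with the mouse as a block at -1.11 (adjusted p 0.0175). The level was lower after PHx in 4 of 4 WT mice and 5 of 5 KO mice, and the 2 genotypes differed in response by 1.10 ± 0.54, which was not called (edgeR adjusted p 0.384).

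Cyp1a2, a target of the aryl hydrocarbon receptor, had 975, 680, 708, 1073 and 761 CPM in WT at baseline. KO livers at baseline had 350, 330, 449, 592 and 630 CPM and did not overlap with WT on the TMM scale, but by library size alone the ranges overlapped and the difference was -0.36 (edgeR adjusted p 0.726). On the TMM scale it was not called in the fit on all libraries (-0.84 ± 0.72, edgeR adjusted p 0.465), and was called when only the 10 baseline libraries were fitted (-0.81, adjusted p 0.00529), where the spread after PHx does not enter. After PHx the levels were 509 CPM at 30 h, 75.9 and 19.1 CPM at 40 h, and 84.5 and 622 CPM at 48 h in WT. In KO they were 324 CPM at 30 h, 192 and 65.2 CPM at 40 h, and 54.4 and 17.9 CPM at 48 h. All 9 mice with both samples numbered had less Cyp1a2 after PHx.

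With the mouse as a block, Cyp1a2 fell after PHx in WT by 3.18 (edgeR adjusted p 0.0247) and in KO by 2.45 (adjusted p 0.0244) on the log2 scale. In the main fit, which has no block, neither response was called (-1.68 ± 0.73, edgeR adjusted p 0.112, and -1.85 ± 0.74, adjusted p 0.0641). At 48 h Cyp1a2 was lower in KO than in WT (-3.29 ± 0.83, edgeR adjusted p 0.0103). Leaving out WT after PHx replicate 5 (-1.301, edgeR adjusted p 0.226) or KO after PHx replicate 8 (-2.79, adjusted p 0.0781) ended that call.

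Rgn, which also takes part in vitamin C synthesis in the mouse, was nearly the same in all WT livers at baseline, at 1412, 1495, 1426, 1546 and 1355 CPM. KO livers at baseline had 889, 1110, 1109, 1260 and 1104 CPM, all lower on the TMM scale. The difference was -0.40 ± 0.58 (edgeR adjusted p 0.685), or 0.07 by library size alone, and was called when only the 10 baseline libraries were fitted (-0.38, adjusted p 0.0129). After PHx the WT libraries had 616 CPM at 30 h, 265 and 74.3 CPM at 40 h, and 213 and 803 CPM at 48 h. The KO libraries had 785 CPM at 30 h, 401 and 80.3 CPM at 40 h, and 210 and 47.3 CPM at 48 h. Rgn fell in both genotypes, with log2 fold changes of -1.88 ± 0.60 in WT (edgeR adjusted p 0.0335) and -1.84 ± 0.60 in KO (adjusted p 0.0279). Leaving out 1 replicate ended the WT call in 8 of 10 fits and the KO call in 4 of 10, with values of -2.26 to -1.61 in WT and -2.57 to -1.54 in KO.

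**Figure D3:**
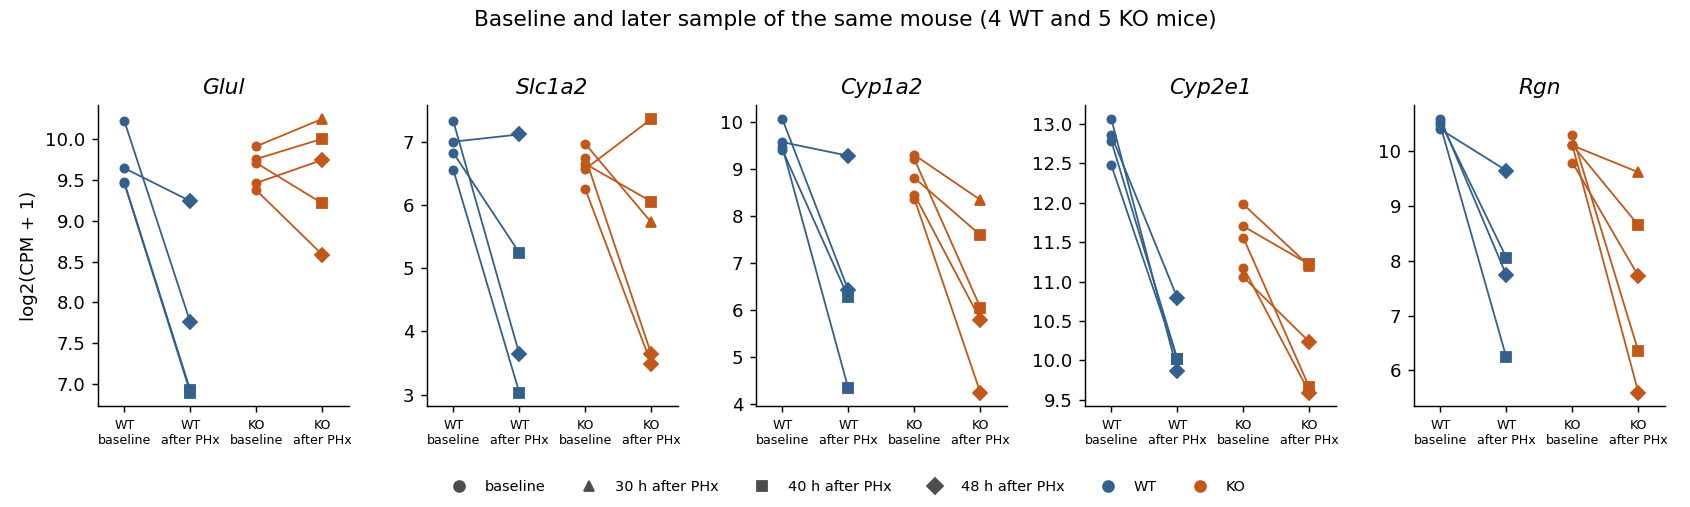
Lines join the baseline and the later sample of the same mouse for 5 genes, as log2(CPM + 1), with 4 WT mice in blue and 5 KO mice in orange and the marker shape giving the hours after PHx. Cyp1a2, Cyp2e1 and Rgn were lower after PHx in all 9 mice, whereas Glul was lower in 4 of 4 WT mice and 2 of 5 KO mice.

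Lect2, a secreted hepatocyte factor first known for attracting leukocytes, had 107, 97.6, 91.0, 119 and 81.0 CPM in WT at baseline. KO livers at baseline had 235, 237, 265, 233 and 252 CPM, at least 233 CPM in each against at most 119 CPM in WT. The log2 difference of 1.304 ± 0.47 was not called in the fit on all libraries (edgeR adjusted p 0.0614). It was called by DESeq2 (1.33, adjusted p 0.0291), by library size alone, and by edgeR on the 10 baseline libraries alone (1.33, adjusted p 2.25e-06). After PHx the groups overlapped: WT had 22.5 to 227 CPM and KO 90.9 to 399 CPM.

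The Wnt-responsive members Axin2 and Lgr5 were weakly expressed. Axin2, a scaffold of the complex that degrades beta-catenin and itself a Wnt target, had 2.93, 4.90, 2.32, 7.75 and 12.1 CPM in WT at baseline and 14.8, 4.78, 7.79, 7.10 and 8.03 CPM in KO at baseline. In WT after PHx it had 13.3 CPM at 30 h, 2.35 and 3.69 CPM at 40 h, and 2.06 and 11.2 CPM at 48 h. In KO after PHx it had 1.14 CPM at 30 h, 9.61 and 6.20 CPM at 40 h, and 0.959 and 1.08 CPM at 48 h. The 3 KO livers of 30 h and 48 h were thus lower than every other library in the study.

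Axin2 was called lower in KO at 48 h (-2.70 ± 0.80, edgeR adjusted p 0.0238). Library size alone did not call it there (-2.30, edgeR adjusted p 0.0591), nor did the fits without WT after PHx replicate 5 (-1.09, adjusted p 0.363), KO replicate 7 (-2.66, adjusted p 0.115) or KO replicate 8 (-2.87, adjusted p 0.0874). After PHx over all times it was not called, but with the 3 times weighted equally it was, at -1.62 (edgeR adjusted p 0.0269). Lgr5, the receptor for R-spondins, had 2.02 to 6.60 CPM in WT at baseline and 4.69 to 7.04 CPM in KO at baseline. After PHx it ran from 0 CPM, in WT replicate 4 at 48 h, to 7.72 CPM in WT and from 0.237 to 5.38 CPM in KO. A count of 0 in that library of 28398878 counts allows a level of up to 0.106 CPM (3 counts, counting error only). No main contrast called Lgr5.

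Counted over the contrasts, KO against WT at baseline called 1 of 10 members higher (Rhbg) and 1 lower (Cyp2e1), where 16% of all genes tested were called, 11.1% higher and 4.89% lower. By library size alone it called 2 higher and 0 lower, beside 24% and 0.771% of all genes. The split over all genes was 69.5% higher among those called with TMM and 96.9% by library size alone. Ranges did not overlap for 5 members, 3 lower in KO (Cyp2e1, Cyp1a2, Rgn) and 2 higher (Rhbg, Lect2), and this held for 27.9% of all genes, 12.2% lower and 15.6% higher. The ranges of Cyp1a2 and Rgn overlapped by library size alone, and those of Cyp2e1, Rhbg and Lect2 did not. KO against WT after PHx called 1 member, Rhbg, against 24.2% of all genes, 16% higher and 8.2% lower (66.1% of the called genes higher, and 92.9% by library size alone), and the ranges of all 10 members overlapped, where those of 10% of all genes did not (7.05% higher and 2.97% lower). Those of Rhbg did not overlap after PHx by library size alone. The WT response to PHx called 2 members lower and none higher, beside 8.68% of all genes lower, 11.4% higher and 20.1% in either direction (56.8% of the last higher, and 86.7% by library size alone). The same contrast with the mouse as a block called 4 lower, beside 7.53% of all genes lower. Cyp2e1, Cyp1a2 and Rgn were lower in every WT liver after PHx than in any at baseline, and no member was higher in that way, where ranges did not overlap for 17.8% of all genes (10.9% lower and 6.91% higher). The WT ranges of Cyp1a2 overlapped by library size alone.

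The KO response called 1 member lower, Rgn, where 12.1% of all genes were lower, 17.5% higher and 29.5% were called in all (59.1% of the last higher, and 80.9% by library size alone). A block on the mouse gave 3 lower, beside 11.8% of all genes, and DESeq2 also gave 3, beside 7.87% of the genes it took in. The KO ranges of Cyp1a2 and Rgn did not overlap, both lower after PHx, beside 13.9% of all genes (7.73% lower and 6.19% higher). In the difference of responses 0 of 10 members were called by edgeR, none had an unadjusted p under 0.05, and DESeq2 also called 0, beside 0.389% of all genes by edgeR (0.164% higher and 0.225% lower).

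**Figure D4:**
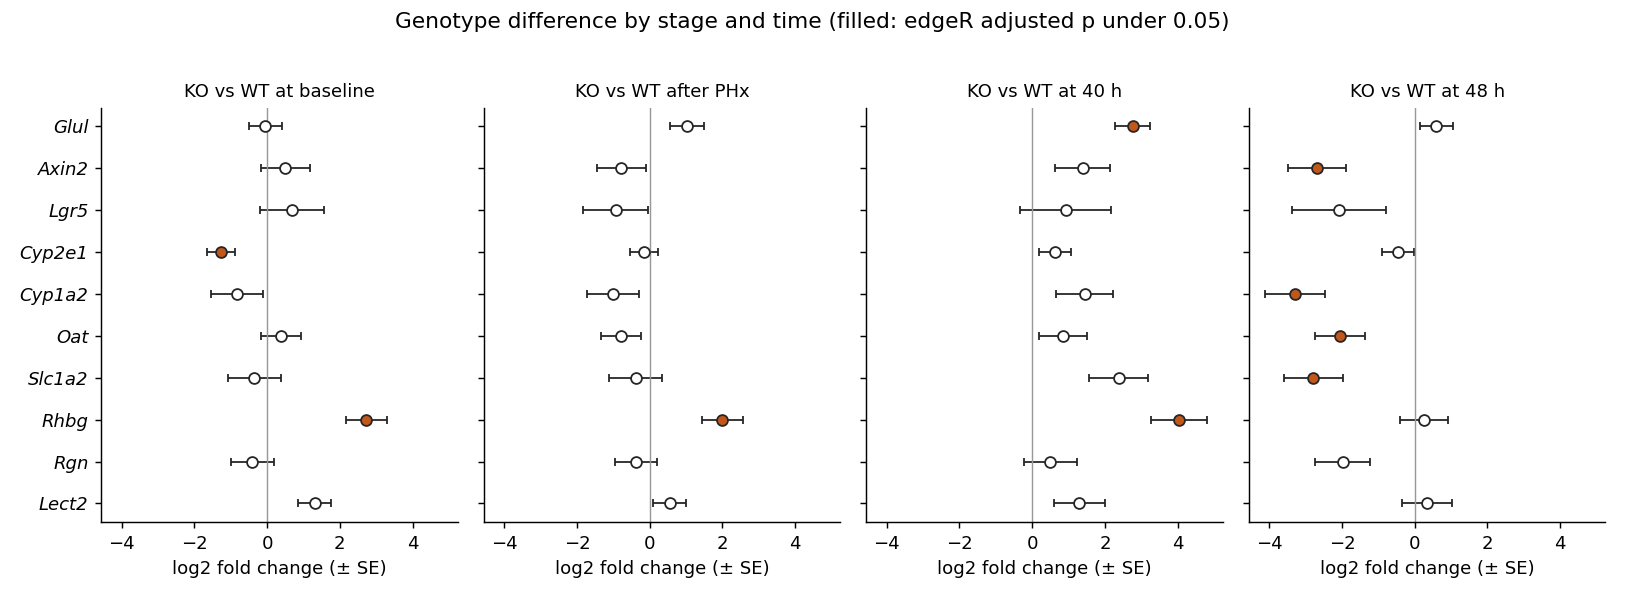
Points are log2 fold changes of KO against WT with SE bars for the 10 genes in 4 contrasts, at baseline, after PHx over all times, at 40 h and at 48 h, and filled points have an edgeR adjusted p under 0.05. At 40 h all 10 values are above 0 and at 48 h 7 are below 0, with 4 of these called.

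The SE and adjusted p at 40 h and 48 h use a spread pooled with the baseline libraries, where members varied less. At 40 h and 48 h, 7 members had opposite signs, and Glul, Rhbg and Lect2 were positive at both. At 40 h 2 members were called higher in KO, Glul and Rhbg, where 8.61% of all genes were higher, 4.68% lower and 13.3% were called. By library size alone 3 members were higher, beside 19.8% of all genes. Of all genes called, 64.8% were higher, and 93.3% by library size alone. All 10 log2 values were positive, with a median of 1.34 beside 0.04 over all genes. Leaving out 1 library turned Lgr5 (-0.0150), Cyp2e1 (-0.36), Oat (-0.17) or Rgn (-1.08) negative at their lowest. At 48 h Axin2, Cyp1a2, Oat and Slc1a2 were called lower, where 10.7% of all genes were lower, 13.7% higher and 24.3% were called (56.1% of these higher, and 84.6% by library size alone), and the median was -2.02 beside -0.02 over all genes. None of these 4 was called without WT after PHx replicate 5 or without KO after PHx replicate 8, and by library size alone 2 were.

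Whether the genotype difference itself differed between 48 h and 40 h was tested in a contrast added after the values were seen. Of the members, 4 were called lower: Slc1a2 (-5.16 ± 1.15, edgeR adjusted p 0.0295), Cyp1a2 (-4.73 ± 1.13, adjusted p 0.0348), Rhbg (-3.78 ± 0.99, adjusted p 0.0428) and Axin2 (-4.08 ± 1.10, adjusted p 0.047). Over all genes 3.11% were lower, 1.61% higher and 4.72% were called. Between 0 and 8 members were called lower when 1 of the 8 libraries was left out, in fits that called 0.087% to 13.8% of all genes lower. By library size alone Axin2 was not called (-4.14, edgeR adjusted p 0.0675). DESeq2 and the fit with no filter each called 6 members lower, Glul and Oat being added, beside 4.67% and 3.58% of all genes. At 40 h the summed cell cycle level was 30.6 and 92.3 CPM in WT and 940 and 168 CPM in KO. At 48 h that level was 42.8 and 1143 CPM in WT and 51.3 and 68.0 CPM in KO. Its part in the time difference was not tested.

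A further 40 genes with known pericentral enrichment were set beside the members. At baseline 7 were called higher in KO and 2 lower, or 17.5% and 5% of the list beside 11.1% and 4.89% of all genes, with a median log2 of -0.50. By library size alone 10 were higher and 0 lower, beside 24% and 0.771% of all genes, with a median of -0.03. Cyp2c55, a cytochrome P450, was called higher, at 24.2 ± 4.08 CPM in WT and 276 ± 76.6 CPM in KO (SD, n = 5). Tuba8, a tubulin, was called higher too, at 1.21 ± 0.226 and 10.7 ± 4.87 CPM. Ugt2b1, which conjugates glucuronic acid to drugs and steroids, was called lower at baseline (-2.05 ± 0.65, edgeR adjusted p 0.036), at 1186 ± 122 CPM in WT and 287 ± 101 CPM in KO. It was called lower after PHx as well (-2.02 ± 0.65, edgeR adjusted p 0.0279), at 173 ± 155 and 42.6 ± 51.8 CPM. At 48 h 19 of the 40 were called lower in KO and 1 higher, beside 10.7% and 13.7% of all genes. The median was -1.56. By library size alone 15 were lower and 2 higher, beside 3.76% and 20.7%. Without WT after PHx replicate 5 the median was -0.25, without KO replicate 8 -1.34 and without KO replicate 7 -2.15. Fewer were called lower in each of these fits. At 40 h 7 were higher and 1 lower, beside 8.61% and 4.68% of all genes, and the median was 0.17. By library size alone 9 were higher and 0 lower, beside 19.8% and 1.42%. Without WT after PHx replicate 2 the 40 h median was -0.20, and without WT replicate 3 it was 1.07. Without KO replicate 10 it was -0.43 and without KO replicate 11 0.35. Fewer were called higher in each of these fits.

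Cyp7a1, the rate-limiting enzyme of bile acid synthesis, had the widest such swing among the genes named. In WT after PHx it had 48.2 CPM at 30 h, 0.0435 and 0.457 CPM at 40 h, and 0.213 and 70.8 CPM at 48 h. In KO it had 0.663 CPM at 30 h, 60.7 and 3.75 CPM at 40 h, and 0.0899 and 0.11 CPM at 48 h. Its log2 fold change was 6.93 ± 1.83 at 40 h (edgeR adjusted p 0.0229) and -8.39 ± 1.96 at 48 h (adjusted p 0.00696). Without WT after PHx replicate 5 the 48 h value was -1.12 (edgeR adjusted p 0.738), and without KO replicate 7 or 8 it was not called (adjusted p 0.0566 and 0.0533). The 40 h call ended without WT replicate 2 (edgeR adjusted p 0.192), WT replicate 3 (adjusted p 0.057) or KO replicate 10 (3.83, adjusted p 0.142). Among the livers after PHx, the 3 with the most Cyp7a1 were again WT 1, WT 5 and KO 10, and at baseline WT livers had up to 91.5 CPM.

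Of the 40 pericentral genes, 8 were called lower and 7 higher in the WT response to PHx, where 8.68% of all genes were lower and 11.4% higher. In the KO response 11 were lower and 3 higher, beside 12.1% and 17.5% of all genes. By library size alone these counts were 6 lower and 8 higher in WT and 11 lower and 3 higher in KO. Over all genes that scaling called 3.97% lower and 25.9% higher in WT, and 6.55% and 27.7% in KO.

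Of 15 Wnt target genes, 7 were called higher in KO at baseline and 1 lower, beside 11.1% and 4.89% of all genes (9 and 0 by library size alone, beside 24% and 0.771%). They included Dkk3, a secreted protein of the Dickkopf family, at 0.757 ± 0.252 CPM in WT and 4.89 ± 2.37 CPM in KO, Ccnd1 (cyclin D1) at 22.9 ± 4.5 and 216 ± 80.0 CPM, and Myc at 5.08 ± 1.75 and 23.5 ± 14.1 CPM. Ccnd1 and Myc are also cell cycle genes. The target called lower was Prox1 (-1.07 ± 0.30, edgeR adjusted p 0.0182). Not called were Rnf43 (-0.08), Notum (-0.09), Sp5 (-0.06), Znrf3 (0.34), Nkd2 (0.84), Tnfrsf19 (1.90) and Apcdd1 (2.23). After PHx 4 of the 15 were higher in KO and 0 lower, beside 16% and 8.2% of all genes, among them Dkk3 and Nkd1, an inhibitor of Wnt signalling (0.84 ± 0.25, edgeR adjusted p 0.0192). Axin2 had a log2 fold change of -0.78 ± 0.67 in the same contrast (not called, edgeR adjusted p 0.425).

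The Wnt pathway list held 43 ligands, receptors, modulators and signalling components, of which 33 were tested. At baseline 2 were higher in KO and 1 lower, beside 11.1% and 4.89% of all genes, but 10 higher and 0 lower by library size alone, beside 24% and 0.771%. The lower one on the TMM scale was Lgr4, a receptor for R-spondins (-0.65 ± 0.22, edgeR adjusted p 0.0485). After PHx 13 were higher and 1 lower, beside 16% and 8.2% of all genes (19 and 1 by library size alone, beside 26.6% and 2.02%). Wnt4, a ligand, was at 0.860 ± 0.312 CPM in WT and 4.98 ± 1.70 CPM in KO, and the receptor Fzd6 was at 5.04 ± 1.64 and 23.3 ± 13.1 CPM. Wnt5a, a ligand that often signals without beta-catenin, was at 2.13 ± 1.18 and 9.30 ± 2.74 CPM. Wnt9b, a ligand of central vein endothelium, rose after PHx in WT (2.73 ± 0.66, edgeR adjusted p 0.00779), from 0.515 ± 0.215 to 3.46 ± 1.77 CPM.

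Periportal genes stand for the opposite side of the lobule. Of 30, 1 was called higher and 3 lower in KO at baseline, and 1 higher and 4 lower after PHx, where 4.89% and 8.2% of all genes were lower. By library size alone these counts were 2 higher and 1 lower at baseline and 3 higher and 1 lower after PHx. That scaling called 24% of all genes higher and 0.771% lower at baseline, and 26.6% and 2.02% after PHx. At 40 h 5 were lower, among them Arg1 (-2.11 ± 0.51), and 0 higher, beside 4.68% and 8.61% of all genes. The 40 h median was -0.21, and -0.42 to -0.01 with 1 library left out, where fewer were called lower each time. At 48 h 5 were lower and 1 higher (2 and 2 by library size alone), beside 10.7% of all genes lower and 13.7% higher. Leaving out 1 library gave 9 lower and 3 higher without WT after PHx replicate 4, and 3 lower and 1 higher without KO replicate 8. Those called lower included Cyp2f2 at -3.65 ± 0.70 (edgeR adjusted p 0.00222) and Cps1, the entry enzyme of the urea cycle, at -2.84 ± 0.49 (adjusted p 0.00111). Without WT after PHx replicate 5 Cyp2f2 was at -1.39 (edgeR adjusted p 0.0477) and Cps1 at -2.73 (adjusted p 0.0048). The median over the list at 48 h was -0.42. Without WT after PHx replicate 5 it was -0.30, and without KO replicate 7 it was -1.18.

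Some markers of other liver cells were called higher in KO at baseline, and none lower, where 11.1% of all genes were higher. The summed level of 12 macrophage markers was 240 to 411 CPM in WT and 628 to 804 CPM in KO, with 6 of 12 called higher. For 12 stellate cell markers it was 187 to 305 and 486 to 623 CPM, with 6 of 12 called higher, and for 12 endothelial markers 286 to 324 and 365 to 424 CPM, with 2 called higher. Of 10 cholangiocyte markers 8 were tested and 2 called higher at baseline, with sums of 24.2 to 59.7 CPM in WT and 72.9 to 382 CPM in KO.

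After PHx the macrophage sums were 101 to 487 CPM in WT and 185 to 547 CPM in KO (4 called higher), the stellate sums 184 to 265 and 300 to 540 CPM (5 higher), the endothelial sums 163 to 276 and 173 to 360 CPM (2 higher), and the cholangiocyte sums 21.5 to 240 and 170 to 848 CPM (7 higher), where 16% of all genes were higher. No marker of the first 3 lists was at 0 counts throughout a group. The cholangiocyte marker Sctr was at 0 in all WT baseline libraries. Of 11 hepatocyte markers 3 were called lower in KO at baseline and 3 after PHx, and none higher, whereas library size alone called 0 lower and 1 higher in each, and DESeq2 size factors 1 lower at baseline. The part of cell composition in the differences of the members was not tested.

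Genes with a profile most like that of Glul were ranked by the root mean square difference of log2(CPM + 1), each centred on its WT baseline mean, over the 20 libraries and 12539 genes with a mean of at least 1 CPM. The closest was Srebf1, a regulator of lipid synthesis genes, at 0.491, followed by Acy3, an aminoacylase, at 0.609, and then Aspa, an aspartoacylase. With a pseudocount of 0.1 the third was Ccdc85c. The nearest other member was Lgr5, at rank 3733, and with a pseudocount of 0.1 it was Oat, at rank 5502, with Lgr5 at rank 9603.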

How the data were processed

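Gene counts were measured by poly(A) RNA sequencing of 20 liver samples. The files the authors deposited hold raw counts per Ensembl gene, 1 file per library. Per the submitters' processing notes and design text, reads were aligned to mm10 and uniquely mapped reads counted. The notes name Trimmomatic 0.36 and FastQC 0.11.5, and the design text names FastQC 0.11.5 and fastp 0.20.0. The aligner, counter, strand setting and annotation release are not given in the sources used here, so overlapping genes on opposite strands cannot be separated and near-identical genes lose reads.

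Symbols, coordinates and exon lengths came from GENCODE M21, which held 46091 of 46603 identifiers. One fit of 4 group means over all 20 libraries was made with edgeR 4.0.16 in R 4.3.3, with TMM factors and the filterByExpr filter on groups, and tested two-sided with Benjamini-Hochberg adjustment over 14661 genes. A second fit with 8 means for genotype and time gave the 40 h and 48 h contrasts, with the spread pooled over all groups of replicates. The baseline groups enter that spread, and there the members' median coefficient of variation was 21.3% in WT and 22.0% in KO. After PHx it was 80.0% and 91.7%. The SE and adjusted p at 40 h and 48 h thus do not measure variation after PHx alone. DESeq2 1.42.0, other scaling, no filter, a mouse block and leaving out each replicate were tried as alternatives. The scripts were tested on simulated counts.

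The labels state that each mouse gave both samples, and 9 mice are numbered in both titles. Their paired residuals correlated from -0.10 to 0.16 (mean 0.059 over 9 pairs). All members were named. Of each other list the up to 3 called genes with the largest fold change per contrast and a mean of at least 1 CPM could be named, and some are not reported here. Members and lists were chosen with earlier results of these data known.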

Additional observations from a re-analysis of the deposited data

Results flagged for a closer look

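In 40 checks of 10 genes in 4 groups of 5, 2 single libraries stood apart from the other 4, about the 1 in 20 that chance gives. Glul in WT at baseline had its highest library at 1195 CPM (replicate 4), with the others between 704 and 800 CPM. Lect2 in KO after PHx had its highest library at 399 CPM (replicate 10, 40 h), with the others between 90.9 and 157 CPM.

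The genotype difference changed between 40 h and 48 h for 4 members in the contrast added after the values were seen: Slc1a2 by -5.16, Cyp1a2 by -4.73, Axin2 by -4.08 and Rhbg by -3.78 on the log2 scale (edgeR adjusted p 0.0295, 0.0348, 0.047 and 0.0428). Each rests on 2 libraries per genotype and time. Without WT after PHx replicate 5 the values of Slc1a2 and Cyp1a2 were -2.57 and -2.76 and neither was called (edgeR adjusted p 0.154 and 0.179). Without it Axin2 was at -2.49 and Rhbg at -3.67, and neither was called (edgeR adjusted p 0.256 and 0.132). Of the 8 fits that left out 1 library, 4 called Slc1a2, 3 Cyp1a2, 3 Axin2 and 2 Rhbg.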

How the results depend on the processing

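Limits come first. Libraries after PHx differ by time as well as by mouse, 30 h has 1 library per genotype, and 40 h and 48 h rest on 2 against 2, so that a fit without 1 of these assumes the lone library varies like the other groups. TMM factors differed between the groups, and library size alone moved the median of all genes by more than 0.1 in the contrasts of genotype or of response, but not in the difference of responses. Counts under 10, in 3 of 10 WT libraries for Rhbg and 3 of 10 libraries after PHx for Lgr5, limit precision. DESeq2 size factors in edgeR moved no count of called members by over 1.5 times, and no sign of a member.

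By library size alone the members called were 2 higher and 0 lower at baseline, beside 24% and 0.771% of all genes. Library size alone also called 2 higher after PHx, beside 26.6%, and 2 lower at 48 h, beside 3.76%. The log2 fold changes that turned sign under it were Glul (0.42), Slc1a2 (0.11) and Rgn (0.0685) at baseline, Cyp2e1 after PHx (0.10), Rhbg in the WT response (0.0832) and Rgn in the difference of responses (-0.30). Without the filter 0 members were lower at baseline and 1 in the WT response, beside 1.35% and 3.36% of all genes. In that fit Glul at baseline was 0.0193 and Rgn in the difference of responses -0.0131. With DESeq2 2 members were higher at baseline and 3 lower in the KO response, beside 8.63% and 7.87% of all genes. With only the samples compared, 2 were higher and 3 lower at baseline (beside 21.4% of all genes higher and 18% lower). That setting gave 0 higher after PHx and 0 lower in the KO response, beside 8.12% and 7.54%. A time term gave 2 higher and 1 lower after PHx, beside 17.3% and 15.4% of all genes. Apart from the scaling and the fewer samples or tested genes that define these settings, the cause was not tested.

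In the paired analysis, with the mouse as a replicate block, 4 members were lower in the WT response and 3 in the KO response. The signs that turned under the block were those of Axin2 (-0.60), Lgr5 (-1.86) and Lect2 (-0.36) in the WT response, Glul in the KO response (-0.0817), and Cyp1a2 (0.73) and Slc1a2 (0.85) in the difference of responses. The calls it added were Glul and Cyp1a2 in WT and Cyp2e1 and Cyp1a2 in KO, and it changed no other call of a member. In WT the block also takes the response from 4 mice, without the 30 h library. Leaving out that library alone called Glul too (-1.65, edgeR adjusted p 0.0109), so these steps were not separated in WT. With a pseudocount of 0.1 the median change of Rhbg per KO mouse was -1.28 in place of -0.93.

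Leaving out 1 replicate gave 0 to 1 members lower at baseline, 1 to 2 higher and 0 to 1 lower after PHx, 1 to 3 lower in the WT response, 0 to 3 lower in the KO response, 2 to 4 higher at 40 h, 0 to 2 higher and 0 to 6 lower at 48 h, and 0 to 8 lower in 48 h against 40 h. At 40 h, at 48 h and in 48 h against 40 h, the share of all genes called also moved between these fits. Shifts in the member counts there are thus not particular to the members. For the other contrasts the counts are given without that share. Log2 fold changes that changed sign when 1 replicate was left out ranged as follows. Glul at baseline ran from -0.12 to 0.12. After PHx, Cyp2e1 ran from -0.39 to 0.33, Slc1a2 from -1.19 to 0.32 and Rgn from -1.10 to 0.11. In the WT response Axin2 ran from -0.32 to 0.54 and Lgr5 from -0.35 to 0.43. In the KO response Glul ran from -0.17 to 0.20 and Oat from -0.91 to 0.0235. In the difference of responses Cyp1a2 ran from -0.83 to 0.43, Slc1a2 from -0.83 to 0.68 and Rgn from -0.69 to 0.45. At 40 h Lgr5 ran from -0.0150 to 4.52, Cyp2e1 from -0.36 to 1.20, Oat from -0.17 to 2.16 and Rgn from -1.08 to 1.69. At 48 h Glul ran from -0.14 to 1.45, Lgr5 from -3.20 to 7.45, Cyp2e1 from -0.95 to 0.0024, Rhbg from -0.28 to 0.56 and Lect2 from -0.60 to 2.38. In 48 h against 40 h Lgr5 ran from -6.62 to 6.51 and Lect2 from -2.41 to 1.06. The high ends for Lgr5 at 48 h are fitted against WT replicate 4, with 0 counts, and are no bound.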
